A study of Homo sapiens with 6 samples.

Results

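Histone genes were examined in RNA-seq of HCCC9810 cells, an established human cholangiocarcinoma (CCA) cell line. Members were the rows of the count table whose symbol carries a histone name, in the older style (HIST1H to HIST4H, H1F, H2AF, H2BF, H3F) or the newer one (H1-, H2A, H2B, H3-, H3C, H4C). The rule found 89 of the 19470 genes in the table. Of these, 70 were replication-dependent genes, known by the older HIST names, and 19 were replacement variants and other histone genes outside the clusters. The cells were wild type and received isolinderalactone (ILL), a sesquiterpene lactone, at 20 μM, or the vehicle DMSO, both for 24 h. There were 3 control libraries and 3 ILL libraries, all from this one line, and the labels do not say whether they came from separate cultures.

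Histones are the proteins around which DNA is wound, with H2A, H2B, H3 and H4 in the core of the nucleosome and H1 on the linker DNA between nucleosomes. Replication-dependent histone genes lie in clusters and are switched on in S phase, when new DNA must be packaged. Their mRNAs end in a conserved stem-loop instead of a poly(A) tail, and the stem-loop binding protein SLBP carries them through processing, translation and decay. Replacement variants such as H3.3 and H2A.Z come from genes outside the clusters, have polyadenylated mRNAs and are made throughout the cell cycle. The libraries were made with mRNA-seq kits, and whether poly(A) selection was used is not given in the sources used here, so the counts of stem-loop mRNAs, which such a selection would deplete, have to be read with that limit.

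Total counts ranged from 34282764 to 37758569 per library, and no 2 libraries of a group were as alike as counting noise alone would make them. The summed level of 6 epithelial and biliary markers (KRT7, KRT19, KRT8, KRT18, EPCAM and SOX9) lay between 8805 and 9033 CPM, the read count scaled to a common library size, in controls and 8524 to 9016 CPM with ILL. Its members did not all lie the same way, with KRT7 at 1759 to 1804 CPM in controls and 2716 to 2888 CPM with ILL, and KRT18 at 1379 to 1440 CPM and then 775 to 814 CPM. In every ILL library EPCAM was also above the controls, and KRT8, KRT19 and SOX9 were below them. The leukocyte markers PTPRC and CD3E stayed at or below 0.257 CPM in every library, and the third marker of that list, CD68, a lysosomal protein, was at 36.0 to 40.9 CPM in controls and 111 to 117 CPM with ILL. Hepatocyte markers summed to between 4.92 and 16 CPM, fibroblast markers to 9.34 to 16.9 CPM and endothelial markers to at most 0.971 CPM. Of 17 genes of S phase and DNA replication, such as PCNA and RRM2, 17 were lower with ILL by the adjusted p-value of edgeR's quasi-likelihood test, where 36.9% of all 13066 tested genes were, with log2 fold changes between -3.33 and -1.59. Their part in the histone results was not tested, and in bulk RNA fewer cells of one kind and less RNA per cell cannot be told apart.

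The stem-loop is shown first because it is the feature by which the classes are usually told apart. It was searched in the transcripts of GENCODE 29 (GRCh38), on the transcript strand and at any position. The search used a base pattern written for a stem of 6 base pairs around a loop of 4 bases. Whether the arms of each stem pair at every base was not checked. The pattern was present in 73 of 83129 protein-coding transcripts, or 0.0878%, of which 36 belonged to members. Capitals mark the 16 bases of the stem-loop in the following sites, each with 5 bases on either side, from an annotated transcript of a raised H2A gene, a raised H2B gene, the raised H3 gene whose loop differs, the raised H4 gene, a lowered H2B gene and the replacement variant H2AX.
H2AC6: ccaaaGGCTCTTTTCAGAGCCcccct
H2BC5: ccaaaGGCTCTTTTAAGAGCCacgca
H3C6: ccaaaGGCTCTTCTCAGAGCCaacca
H4C8: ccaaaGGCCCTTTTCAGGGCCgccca
H2BC13: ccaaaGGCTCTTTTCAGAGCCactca
H2AX: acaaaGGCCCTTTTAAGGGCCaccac
The form of H2AC6 and H2BC13 was the commonest, in 17 genes. The form of H2BC5 was found in 5 genes and that of H4C8 in 4 genes, and those of H3C6 and H2AX were found in 1 gene each. An annotated stem-loop was present in 31 of 70 cluster genes and in 1 of 19 replacement genes, H2AX. Many cluster gene models in this annotation hold little beyond the coding sequence, so an absent match says only that the letters are not in the model.

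Promoter windows of RefSeq (build GRCh38.p14), running from 250 bases before to 50 after the start site, were found for 81 of the 89 members. Motifs were searched on both strands. The CCAAT box (CCAAT) was in 86.2% of 65 cluster gene windows and in 34.6% of all 35116 windows in the table, and the TATA box (TATAAA) was in 66.2% and 11.5%. The octamer (ATTTGCAT) was in 68.8% of H2A and 77.8% of H2B cluster windows against 1.77% of all windows. The H1 element AAACACA was in 6 of 6 H1 windows, against 5.64% of all, and the H4 core GGTCC in 11 of 12 H4 windows, against 46.3%. The windows of 5 genes are shown, with every match to these motifs in capitals, since they hold the starts of genes with the clearest values below. The windows of H2AC6 (chr6:26123922-26124221, plus strand) and H2AC20 (chr1:149886668-149886967, plus strand) also contain the start of the H2B gene transcribed the other way, H2BC4 and H2BC21. The others are H1-2 (chr6:26056421-26056720, minus strand), H4C8 (chr6:26285485-26285784, minus strand) and H2AX (chr11:119095416-119095715, minus strand).
H2AC6: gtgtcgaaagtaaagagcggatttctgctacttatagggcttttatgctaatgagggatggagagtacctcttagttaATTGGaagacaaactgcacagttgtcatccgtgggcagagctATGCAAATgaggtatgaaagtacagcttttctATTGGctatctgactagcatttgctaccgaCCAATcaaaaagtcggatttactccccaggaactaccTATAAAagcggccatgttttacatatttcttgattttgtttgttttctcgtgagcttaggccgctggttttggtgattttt
H2AC20: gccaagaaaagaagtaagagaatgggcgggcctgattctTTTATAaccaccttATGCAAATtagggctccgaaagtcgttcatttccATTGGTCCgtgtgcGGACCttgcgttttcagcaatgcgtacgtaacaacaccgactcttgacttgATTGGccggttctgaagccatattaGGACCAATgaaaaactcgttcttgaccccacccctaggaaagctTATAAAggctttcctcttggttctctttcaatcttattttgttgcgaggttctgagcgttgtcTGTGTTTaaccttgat
H1-2: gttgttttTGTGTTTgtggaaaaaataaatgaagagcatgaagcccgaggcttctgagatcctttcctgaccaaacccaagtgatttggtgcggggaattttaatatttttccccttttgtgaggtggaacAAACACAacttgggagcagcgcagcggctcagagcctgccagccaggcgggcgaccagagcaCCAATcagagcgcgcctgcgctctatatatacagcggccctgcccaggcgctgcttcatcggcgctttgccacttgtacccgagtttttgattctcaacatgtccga
H4C8: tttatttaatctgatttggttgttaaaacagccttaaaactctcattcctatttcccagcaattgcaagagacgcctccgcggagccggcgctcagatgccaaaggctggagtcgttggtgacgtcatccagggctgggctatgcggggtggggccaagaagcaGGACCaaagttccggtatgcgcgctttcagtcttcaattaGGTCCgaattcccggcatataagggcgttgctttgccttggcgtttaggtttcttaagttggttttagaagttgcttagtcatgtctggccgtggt
H2AX: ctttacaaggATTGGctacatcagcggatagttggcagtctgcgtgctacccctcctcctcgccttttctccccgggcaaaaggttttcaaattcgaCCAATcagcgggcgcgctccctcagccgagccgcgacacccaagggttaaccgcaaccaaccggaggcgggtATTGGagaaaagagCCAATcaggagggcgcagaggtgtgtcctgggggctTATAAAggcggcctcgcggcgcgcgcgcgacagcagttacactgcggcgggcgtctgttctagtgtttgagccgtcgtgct
In the H2AC20 window the CCAAT box and the GGTCC core overlap where ATTGGTCC or GGACCAAT is printed. The H2AC6, H2AC20 and H2AX windows hold both a CCAAT box and a TATA box, the H1-2 window holds AAACACA on both strands, and the H4C8 window holds GGTCC with none of the other motifs.

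The classes lay on opposite sides in their summed reads, the cluster genes higher and the replacement variants lower with ILL. The 70 cluster genes together took 8566, 7020 and 7627 reads in the control libraries and 18324, 17444 and 18535 reads in the ILL libraries. In CPM adjusted by TMM, a scaling that allows for differences in RNA composition, this was 212 ± 10.9 (SD, n = 3) in controls and 520 ± 12 (SD, n = 3) with ILL, a ratio of 2.45, with no overlap between groups. The 19 replacement genes summed to 2276 ± 31.8 CPM (SD, n = 3) in controls and 1435 ± 34.5 CPM (SD, n = 3) with ILL, a ratio of 0.631, again without overlap. Cluster genes therefore took 8.53% ± 0.504 (SD, n = 3) of histone reads in controls and 26.6% ± 0.137 (SD, n = 3) with ILL. These sums are descriptions, with no test. They cover the mRNAs counted here, and a poly(A) selection, if used, would have depleted the stem-loop mRNAs of the cluster genes. The change of those mRNAs as a class was therefore not measured with certainty.

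**Figure D1:**
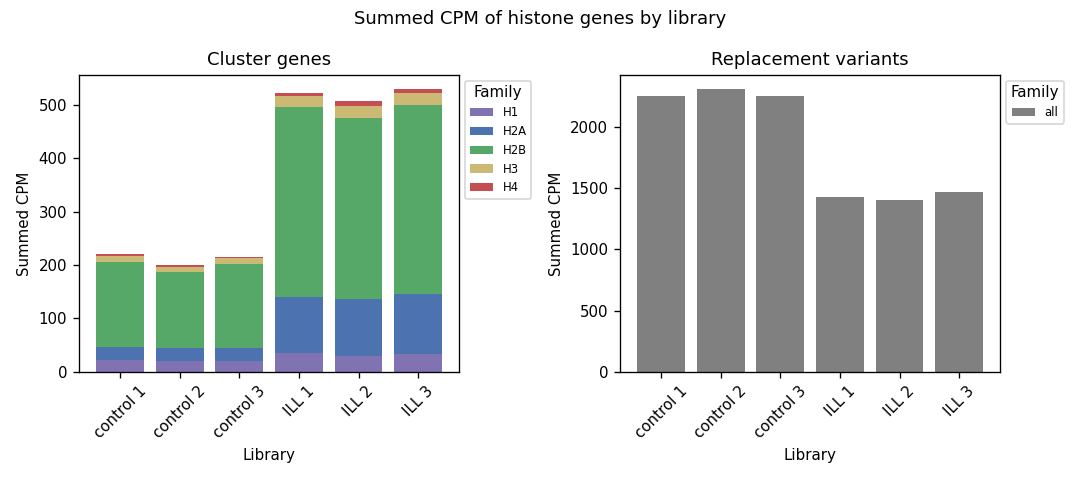
Summed CPM (vertical axis) in each of the 6 libraries (horizontal axis) for the cluster genes (left) and the replacement variants (right), with the histone families of the cluster genes stacked by colour. The cluster sums are 200 to 221 CPM in controls and 507 to 530 CPM with ILL, most of it H2B, while the replacement sums are 2257 to 2312 CPM in controls and 1401 to 1470 CPM with ILL.

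The histone families differed in these ratios. Among cluster genes the H2A sum was 24.5 ± 1.43 CPM in controls and 108 ± 3.50 CPM with ILL (SD, n = 3), a ratio of 4.41. The H2B sum had a ratio of 2.28, the H4 sum 2.78, the H3 sum 2.06 and the H1 sum 1.58. In each of these families the groups did not overlap. The H3 ratio depends on H3-2, a gene that did not pass the test described below. H3-2 held 7.20 of the 10.5 CPM of the H3 sum in controls and 8.61 of the 21.6 CPM with ILL. Among replacement genes the H2A variants had a ratio of 0.353 and the H3 variants 0.687, but not every gene of this class was lower. A few genes dominated. H2BC12 alone held 54.8% of the cluster sum in controls and 34.4% with ILL, and H2BC12, H2BC5 and H2AC6 together held 71.3% with ILL. Without these 3 genes, a choice made after seeing the values, the other 67 summed to 66.6 ± 2.23 CPM in controls and 149 ± 1.52 CPM with ILL (SD, n = 3), a ratio of 2.24.

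The test was edgeR's quasi-likelihood fit over the 13066 genes left by a filter on low counts, with p-values adjusted after Benjamini-Hochberg, and it covered 23 of the 70 cluster genes and 9 of the 19 replacement genes. A gene was called a differentially expressed gene (DEG) at an adjusted p-value under 0.05 with a fold change above 2 or under 0.5. Among the tested cluster genes 11 were DEGs higher with ILL, where 12.5% of all tested genes were, and 2 were DEGs lower, where 11.4% were. By the adjusted p-value alone 13 were higher (36.2% of all genes) and 2 lower (36.9%), and 8 did not pass. All ILL libraries lay above all control libraries in 14 cluster genes (37.5% of all genes) and below them in 3 (38%). The median log2 fold change was 1.07 over the tested cluster genes, -0.49 over the tested replacement genes and near 0 over all genes (-0.0012). These counts describe the genes that passed the filter: H2BC15, H2BC18 and H2BC7 reached the CPM minimum in all libraries of the ILL group but not of the control group, and H2BC13 in the control group but not the ILL group.

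**Figure D2:**
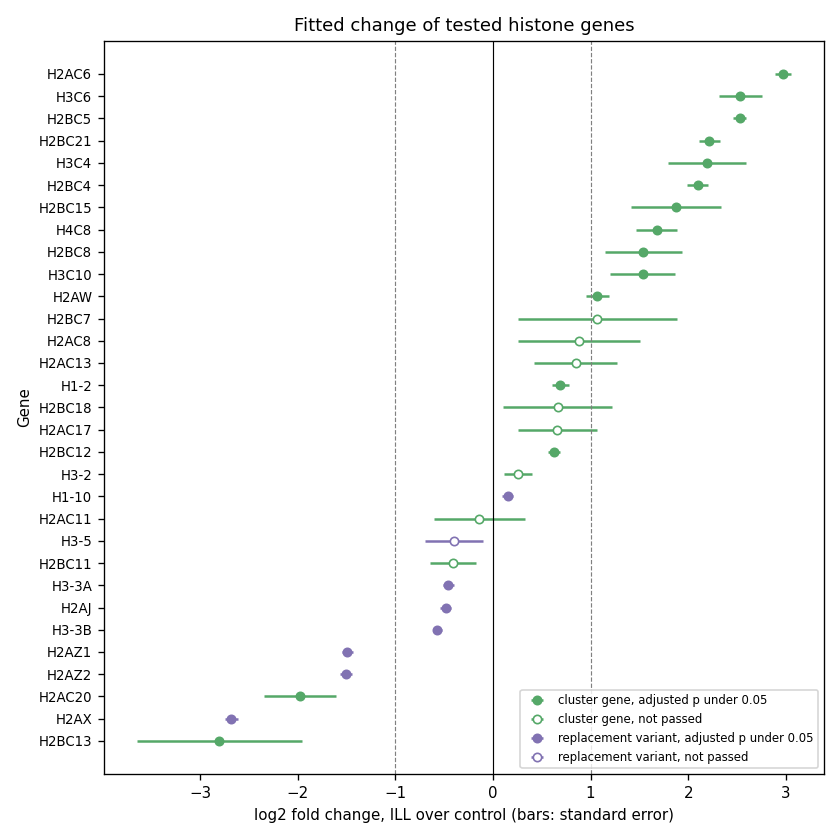
Log2 fold change of ILL over control (horizontal axis, bars are the standard error of the edgeR fit) for 31 of the 32 tested histone genes (vertical axis), with filled points for an adjusted p under 0.05 and dashed lines at a fold change of 2. Cluster genes (green) run from H2AC6 at 2.97 to H2BC13 at -2.80, and the replacement variants shown (purple) from H1-10 at 0.15 to H2AX at -2.68.

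H2AC6, an H2A gene of the chromosome 6 cluster, had the largest rise among the tested members. Its CPM was 10.2, 10.1 and 12.8 in the control libraries and 83.4, 85.4 and 90.2 in the ILL libraries. The lowest ILL library was thus far above the highest control, and the log2 fold change was 2.97 (standard error 0.08, edgeR adjusted p = 5.46e-20). Per length of gene, its level rose from 21.7 ± 2.96 to 162 ± 6.36 FPKM (SD, n = 3).

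There were 5 H2B genes among the DEGs higher with ILL. H2BC5 was at 19.6, 17.3 and 18.0 CPM in controls and 108, 104 and 105 CPM with ILL, a log2 fold change of 2.53 (standard error 0.07, edgeR adjusted p = 2.34e-20). H2BC21, from the chromosome 1 cluster, was at 5.82, 5.69 and 5.68 CPM and then at 25.0, 28.2 and 26.8 CPM, a log2 fold change of 2.22 (standard error 0.10, edgeR adjusted p = 1.49e-15). H2BC4 was at 7.85, 6.01 and 8.17 CPM and then at 32.7, 30.8 and 31.0 CPM, a log2 fold change of 2.10 (standard error 0.11, edgeR adjusted p = 7.72e-15). In these 3 genes the replicates lay close together beside a rise of more than 4-fold. H2BC15 and H2BC8 were far scarcer, at 10 to 14 and 16 to 33 reads in controls and 39 to 45 and 50 to 74 reads with ILL, and their log2 fold changes of 1.88 and 1.54 had standard errors of 0.46 and 0.39.

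Of the genes for the replication-dependent H3 protein, 3 rose. H3C6 was counted at 45, 65 and 40 reads in controls and 245, 306 and 281 reads with ILL, a log2 fold change of 2.53 (standard error 0.22, edgeR adjusted p = 2.17e-10). H3C4 was counted at 12, 15 and 22 reads and then at 82, 62 and 73 reads, a log2 fold change of 2.20 (standard error 0.40, edgeR adjusted p = 2.93e-05). RefSeq places the start of H3C4 as far from H2BC7, 223 bases, as that of H2AC7, which had no read in any library, so the models of H3C4 and H2AC7 overlap at their start. H3C10 was at 44, 23 and 35 reads and then at 78, 96 and 107 reads, a log2 fold change of 1.53 (standard error 0.33, edgeR adjusted p = 0.000247).

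H4C8 was the only H4 gene with enough reads for the test. Most H4 genes encode the same protein. H4C8 took 88, 71 and 67 reads in controls and 193, 276 and 220 reads with ILL, a log2 fold change of 1.68 (standard error 0.21, edgeR adjusted p = 1.21e-07). H2AW, an H2A gene of the smaller chromosome 1 group, was at 7.24, 8.40 and 6.84 CPM in controls and 15, 15.6 and 16.6 CPM with ILL. Its log2 fold change of 1.07 (standard error 0.12, edgeR adjusted p = 1.63e-08) lay just past the 2-fold limit and stayed between 1.01 and 1.15 when any 1 library was left out. H2AW was not a DEG in the 3 limma fits on FPKM, nor H2BC15 in the 2 with a pseudocount of 1, though both passed the adjusted p-value there.

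**Figure D3:**
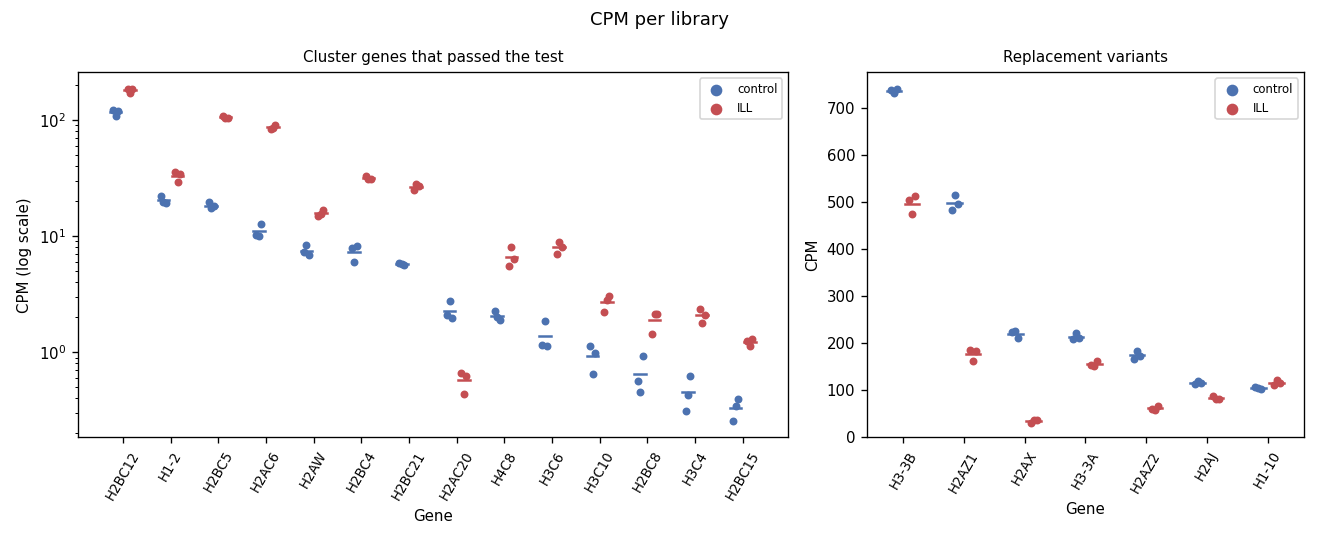
CPM (vertical axis, logarithmic on the left and linear on the right) in each library, as points with a bar at the group mean, for cluster genes (left) and replacement variants (right) that passed the test, control in blue and ILL in red. H2BC13 is left out of the left panel because 1 library had no read. The control and ILL points do not overlap in any gene shown, and H2AC20 is the only gene of the left panel with its ILL points below.

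The cluster genes with the highest level per length in controls were H2BC12 (134 ± 8.74 FPKM), H1-2 (28.6 ± 2.37 FPKM), H2AC6, H2AW (15.1 ± 1.65 FPKM) and H2BC5 (14.2 ± 0.979 FPKM), each as mean and SD of 3 libraries. H2BC12, an H2B gene, rose with a smaller log2 fold change than the H2B genes above, a difference that was not tested. It was at 122, 108 and 119 CPM in controls and 184, 169 and 184 CPM with ILL, a log2 fold change of 0.63 (standard error 0.06, edgeR adjusted p = 6.83e-10). H1-2, a linker histone and the only cluster H1 gene that could be tested, was at 22.3, 19.5 and 19.4 CPM and then at 35.8, 29.1 and 33.9 CPM, a log2 fold change of 0.69 (standard error 0.09, edgeR adjusted p = 1.79e-07). Both passed the adjusted p-value and stayed under the 2-fold limit. With ILL the highest levels per length were H2BC12 at 197 ± 10.5 FPKM, H2AC6 and H2BC5 at 78.0 ± 2.36 FPKM (SD, n = 3).

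The 2 cluster DEGs that fell were both of low level. H2AC20, an H2A gene of the chromosome 1 cluster, was counted at 81, 97 and 70 reads in controls and 23, 15 and 22 reads with ILL, a log2 fold change of -1.98 (standard error 0.37, edgeR adjusted p = 4.02e-05). H2BC13, an H2B gene, was counted at 14, 20 and 12 reads in controls and 0, 1 and 5 reads with ILL. Its log2 fold change was -2.80 (standard error 0.85, edgeR adjusted p = 0.00474), and it moved to -4.57 without ILL replicate 3, which held most of its reads in that group. Both genes had no overlap between groups.

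Several histone genes stand in pairs that are transcribed away from each other from starts that lie close together, usually an H2A with an H2B gene, and their values were set side by side. There were 13 such pairs of starts within 1000 bases of each other, and in 6 both genes were tested. H2BC4 and H2AC6, with starts 246 bases apart in the window printed above, both rose, by 2.10 and 2.97 on the log2 scale. H2BC21 and H2AC20, 236 bases apart, went in opposite directions, with log2 fold changes of 2.22 and -1.98, each past the test. H2BC13 fell while its partner H2AC13, 244 bases away, was counted at 40, 26 and 20 reads in controls and 74, 41 and 32 reads with ILL, a log2 fold change of 0.85 that did not pass (standard error 0.42, edgeR adjusted p = 0.0757) and did pass without ILL replicate 3 (edgeR adjusted p = 0.0405). In the pair H2BC8 and H2AC8 the H2B gene passed the test and H2AC8 did not, at 0.88 (standard error 0.62, edgeR adjusted p = 0.208). In the pair H2BC11 and H2AC11 neither passed, at -0.41 and -0.14. The last pair was H3C4 and H2BC7, 223 bases apart by RefSeq, where H3C4 passed at 2.20 and H2BC7 did not, at 1.07 (edgeR adjusted p = 0.242). RefSeq gives H3C4 the same start as H2AC7, so both form a pair with H2BC7 among the 13. GENCODE 29 places H3C4 at chr6:26196840-26197250, farther from H2BC7. Whether the genes of a pair differed in their change was not tested in any pair.

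Of the 8 tested cluster genes that did not pass, H3-2 had the most reads per library, 298, 217 and 274 in controls and 300, 289 and 310 with ILL, a log2 fold change of 0.26 (standard error 0.14, edgeR adjusted p = 0.0997). GENCODE 29 places H3-2 at chr1:143894544-143905964 and lists no protein-coding transcript for it. H2BC7 was counted at 1, 20 and 0 reads in controls and at 15, 14 and 14 reads with ILL, so that control replicate 2 alone lay above the ILL group. Its log2 fold change was 1.07 (standard error 0.81, edgeR adjusted p = 0.242) and became 4.61 (edgeR adjusted p = 0.00185) without that library. The other genes that did not pass were H2AC17 at 0.66, H2BC18 at 0.67, H2AC8, H2AC13, H2BC11 and H2AC11, with standard errors between 0.23 and 0.62.

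A further 47 cluster genes were too sparse for the test, and 15 of these had no read in any library. Together the 47 took 133, 98 and 103 reads in controls and 93, 114 and 101 reads with ILL, a CPM ratio of 0.970 with overlapping groups. This even sum held genes on either side. Of 17 genes with at least 20 reads in all, the exact 95% interval of the ratio of ILL to control lay above 1 in 6 and below 1 in 6. The interval covers counting error only and not the spread between replicates. The share of all sparse genes with such intervals was not computed, so these counts have no background beside them. H2AC15, the partner of the raised H2BC15, had 1, 6 and 5 reads in controls and 25, 20 and 9 with ILL, a ratio of 4.71 (2.49 to 9.68). H4C5 had 1, 2 and 2 reads and then 9, 11 and 15, a ratio of 7.33 (2.86 to 24.0), and H4C12 had 0, 0 and 2 reads and then 13, 10 and 10, a ratio of 17.3 (4.42 to 149). In the other direction H4C3 had 8, 10 and 3 reads in controls and 0, 2 and 0 with ILL, a ratio of 0.0997 (0.0113 to 0.408), and the linker histone gene H1-5 had 15, 4 and 3 reads and then 0, 0 and 2, a ratio of 0.0952 (0.0109 to 0.387). The other genes with an interval above 1 were H2AC19, H3C1 and H4C15, and those with one below 1 were H1-4, H2AC14, H3C12 and H4C9. H2AC19 has a near-identical copy, H2AC18, with 22 reads in controls and 18 with ILL, and reads of such copies may have been split between them.

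Some of these sparse genes were at 0 in a whole group. H4C15 had no read in controls and 0, 20 and 4 with ILL, at least 8.38-fold higher over the group against a floor of 3 reads (6.30-fold at the lower limit of the exact 95% interval), and 1 library held most of its reads. H4C15 has a near-identical copy, H4C14, with 2, 1 and 0 reads with ILL and none in controls, so reads of the 2 copies cannot be told apart with certainty. H3C11 had 5, 1 and 5 reads in controls and none with ILL, at least 3.50-fold lower against the same floor (2.40-fold at the limit of the exact interval). Without the filter on low counts, 32 of the 47 genes could be tested. Of these, 4 were called DEGs higher (H2AC15, H4C12, H4C15 and H4C5) and 4 lower (H1-5, H3C11, H3C12 and H4C3), with edgeR adjusted p-values between 0.002 and 0.0484. In that fit 1759 of all 16266 genes were DEGs higher and 1571 were DEGs lower. Whether the sparse cluster genes were called more often than other genes was not tested.

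**Figure D4:**
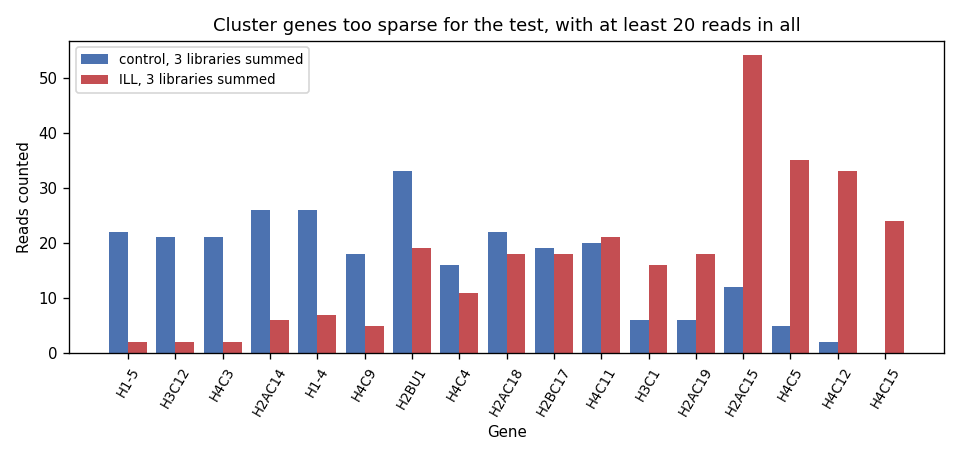
Reads counted (vertical axis) over the 3 control libraries (blue) and the 3 ILL libraries (red) for the 17 cluster genes below the filter that had at least 20 reads in all, ordered by the share of reads from ILL libraries. H1-5, H3C12 and H4C3 at the left had 2 reads each with ILL, and H4C15 at the right had none in controls.

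Among replacement variants, 3 were DEGs, all lower with ILL, and 0 were DEGs higher by edgeR or by the DESeq2 and limma fits, of 9 tested (11.4% of all tested genes were DEGs lower and 12.5% higher). By the adjusted p-value alone 6 were lower (36.9% of all genes) and 2 higher (36.2%), and at an unadjusted p under 0.05 also 2 were higher. H2AX, the H2A variant that is phosphorylated at DNA breaks, lies on chromosome 11 (chr11:119093854-119095467, minus strand, GENCODE 29). It was at 223, 226 and 211 CPM in controls and 30.8, 35.7 and 36.6 CPM with ILL, a 6.41-fold lower level. Its log2 fold change was -2.68 (standard error 0.07, edgeR adjusted p = 3.8e-21). This was larger in size than that of any other replacement variant tested under the naming rule, which leaves out CENPA. H2AX is also the replacement member whose annotated transcripts hold the stem-loop, followed by 1044 further bases in the longer one.

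The H2A.Z variants, which mark promoters and other regulatory sites, come from the genes H2AZ1 and H2AZ2. H2AZ1 was at 482, 516 and 497 CPM in controls and 186, 163 and 182 CPM with ILL, a log2 fold change of -1.49 (standard error 0.06, edgeR adjusted p = 1.08e-17). H2AZ2 was at 166, 183 and 173 CPM and then at 59.8, 58.3 and 65.4 CPM, a log2 fold change of -1.51 (standard error 0.06, edgeR adjusted p = 4.21e-17). The genes fell by nearly the same factor, 2.81-fold and 2.84-fold, and whether the changes differ was not tested. Per length H2AZ1 had the highest value of the histone genes in controls, at 589 ± 19.4 FPKM, and stood at 200 ± 15.1 FPKM with ILL (SD, n = 3). Stem-loop mRNAs of the cluster genes may be undercounted, so this order covers the counted reads only.

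The H3.3 genes H3-3A and H3-3B, which encode the same protein, fell by less than 2-fold. H3-3B was at 739, 731 and 740 CPM in controls and 504, 474 and 513 CPM with ILL, a log2 fold change of -0.57 (standard error 0.05, edgeR adjusted p = 1.15e-10). H3-3A was at 209, 221 and 211 CPM and then at 154, 151 and 163 CPM, a log2 fold change of -0.46 (standard error 0.05, edgeR adjusted p = 2.92e-08). H2AJ, an H2A variant gene on chromosome 12, was lower too, with a log2 fold change of -0.49 (standard error 0.06, edgeR adjusted p = 2.96e-08). H3-5, whose sequence is close to that of H3-3B so that reads may be shared, was at 65, 95 and 99 reads in controls and 69, 55 and 65 reads with ILL and did not pass (edgeR adjusted p = 0.237).

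H1-10, a linker histone gene outside the clusters, was at 106, 105 and 103 CPM and then at 112, 121 and 116 CPM, a log2 fold change of 0.15 (standard error 0.05, edgeR adjusted p = 0.0165). This small difference no longer passed without ILL replicate 2 (edgeR adjusted p = 0.0644) or with scaling by library size only (edgeR adjusted p = 0.18). The remaining 10 replacement genes, among them the germline genes H1-7, H1-8, H2BW1 and H2BW2, were not tested, and 7 of these had no read in any library.

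The annotated ends of the cluster transcripts were set beside the calls. Of the 11 DEGs higher, 10 had a transcript with the stem-loop and 9 had one that runs on for more than 100 bases past it, up to 1862 bases in H3C6, 1729 in H2BC21, 1655 in H4C8 and 1128 in H2AC6. For H2BC5 the longest run past the stem-loop was 39 bases, and for H2AC6, H2BC4, H2BC5 and H2BC15 other annotated transcripts of the gene lacked the stem-loop. Of the 2 DEGs lower, H2BC13 had the stem-loop, 40 bases before the end of its transcript, and H2AC20 had no match. Of the 10 tested genes that were not DEGs 5 had the stem-loop and 3 ran past it, and of the 47 sparse genes 15 and 10 did. The length behind the deposited FPKM values was compared with the annotated transcript of longest run in the 9 genes that ran past it. It was at least as long in 3, at 2700 bases for H3C6, 2426 for H2BC4 and 2224 for H2BC21. For H2BC4 that annotated transcript has only 571 bases, so the 2 do not match. The FPKM length was shorter in the other 6, at 409 bases for H4C8, 486 for H3C10, 489 for H2BC8, 510 for H2AW, 519 for H2AC6 and 542 for H2BC15. For H2BC5 it was 1320 bases. The reads themselves were not used here, and which end the counted mRNAs carried was not tested. The promoter windows of the DEGs higher held the CCAAT box in 10 of 11, the TATA box in 7 and the octamer in 5. These shares of 90.9%, 63.6% and 45.5% stood beside 86.2%, 66.2% and 40% of all cluster windows. GGTCC was in 2 of them, or 18.2%, against 30.8% of all cluster windows, and AAACACA in 0, against 13.8%. Among cluster windows GGTCC was in 11 of 12 for H4 and AAACACA in 6 of 6 for H1. The DEGs higher held only 1 H4 gene and 0 cluster H1 genes, so these 2 shares cannot be read apart from family.

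The genes that make, process and store histones were taken from lists chosen with earlier results of these data known. Of 16 genes for the transcription, processing and decay of histone mRNA, 4 were DEGs lower (11.4% of all tested genes) and 0 higher by edgeR, DESeq2 or limma (12.5%). By the adjusted or the unadjusted p-value alone 14 were lower (36.9% of all by the adjusted one) and 1 higher (36.2%), with a median log2 fold change of -0.80. NPAT, the cyclin E substrate that activates the clusters, was at 43.2 ± 0.835 CPM in controls and 17.2 ± 1.24 CPM with ILL (SD, n = 3), a log2 fold change of -1.33 (standard error 0.08, edgeR adjusted p = 1.05e-13). SLBP was at 97.3 ± 3.22 CPM and then at 43.6 ± 0.348 CPM (SD, n = 3), a log2 fold change of -1.16 (standard error 0.06, edgeR adjusted p = 7.54e-15). These genes were thus lower in the same libraries in which the cluster sum was higher. ERI1, the exonuclease that trims histone mRNA ends and takes part in their decay, had a log2 fold change of -1.24 (standard error 0.07, edgeR adjusted p = 2.06e-14), and SRRT, a cap-associated factor, one of -1.05 (standard error 0.06, edgeR adjusted p = 4.26e-14). CASP8AP2, a partner of NPAT in the histone locus body, had -0.88 (standard error 0.10, edgeR adjusted p = 2.52e-08).

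Of 29 histone chaperone genes 12 were DEGs lower (11.4% of all tested genes) and 0 higher by edgeR, DESeq2 or limma (12.5%). By the adjusted or the unadjusted p-value alone 22 were lower (36.9% of all by the adjusted one) and 2 higher (36.2%), with a median log2 fold change of -0.76. Among the 11 genes for deposition of H3 and H4 at replication 8 were DEGs lower, and among the 6 for deposition of H3.3 outside replication 0 were by edgeR, where 3 were lower and 2 higher by the adjusted p-value alone. NASP, which holds the soluble pool of H3 and H4, was at 120 ± 3.35 CPM in controls and 17.1 ± 1.97 CPM with ILL (SD, n = 3), a log2 fold change of -2.81 (standard error 0.07, edgeR adjusted p = 1.64e-20). ASF1B, which hands H3 and H4 to the deposition factors, had a log2 fold change of -2.75 (standard error 0.09, edgeR adjusted p = 9.5e-19), and TONSL, which reads newly made histones behind the fork, one of -2.26 (standard error 0.07, edgeR adjusted p = 2.86e-19). HJURP, the chaperone of the centromeric H3 variant, had the lowest value of the list at -3.38 (standard error 0.07, edgeR adjusted p = 4.44e-22). Its client CENPA, which the naming rule does not cover, went from 1279, 1139 and 985 reads in controls to 137, 114 and 141 reads with ILL, a log2 fold change of -3.05 (standard error 0.12, edgeR adjusted p = 1.73e-17).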

How the data were processed

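RNA from 3 control and 3 ILL libraries of HCCC9810 cells was analysed from the deposited tables. The read counts deposited by the authors are raw and listed by gene symbol, and the deposited FPKM values are derived from them: 312 of 312 member values above 0 equalled count over gene length and library total within 0.1%. The submitters' processing notes name GRCh38 and DESeq2. The aligner, counting program, annotation and strand setting are not given in the sources used here, so reads of overlapping genes and of near-identical histone copies cannot be told apart with certainty. Groups were taken from the sample labels, and 0 columns of per-sample values were unmapped. P-values measure only the spread between these libraries, which may be technical.

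Histone genes and the lists of other genes were chosen with earlier results of these data known. A gene was replication-dependent if its older symbol began with HIST1H to HIST4H, and a replacement gene otherwise. Counts were filtered with filterByExpr, scaled by TMM and fitted over all genes with edgeR's quasi-likelihood test (edgeR 4.0.16, R 4.3.3) with Benjamini-Hochberg adjustment, on 13066 of 19470 genes. The biological coefficient of variation was 0.0717. With a group at 0, a fold is a bound against 3 reads over the group. Intervals of read ratios are exact at 95% and cover counting error only. The code was tested on simulated data. The result of 1 tested gene is not reported here.

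Full statistics were given for the 5 cluster DEGs at each end and the 5 cluster genes of highest control FPKM, for the replacement DEGs and the H1, H2A.X, H2A.Z, macroH2A and H3.3 variants, and for at most 4 DEGs at each end of the other lists with SLBP, NPAT, CASP8AP2 and CENPA. Other genes were named after their values were seen. The alternatives changed the scaling (size factors of DESeq2, or library totals alone), the filter (none, or 10 counts in every library), the test (Wald test of DESeq2 1.42.0, limma 3.58.1 on log2 FPKM with pseudocounts of 1 and 0.1), the design (a block for the replicate number), the libraries (1 left out at a time) and the fold change limit.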

Additional observations from a re-analysis of the deposited data

How the results depend on the processing

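Of 32 tested histone genes, 26 stayed on the same side of the adjusted p-value of 0.05 under every alternative that tested them, and none of the others reversed. The 6 exceptions were H1-10, whose pass was lost, and H2AC13, H2AC17, H2BC11, H2BC7 and H3-5, which passed under at least 1 alternative. Cluster DEGs higher numbered 11, against 15 with no filter on low counts, 14 with DESeq2's Wald test, 11 to 15 without 1 library, and 9, 9 and 10 in the limma fits on FPKM, where H2AW (3 fits) and H2BC15 (2 fits) fell under the fold limit. Cluster DEGs lower numbered 2, against 6 with no filter on low counts and 1 with at least 10 counts in every library or with any of the 3 limma fits on FPKM. H2BC13 was not tested with at least 10 counts or at a mean FPKM of at least 1, and was no longer a DEG in the unfiltered limma fit. Without the fold change cutoff, replacement variants gave 2 higher and 6 lower, machinery genes 1 higher and 14 lower, and chaperone genes 2 higher and 22 lower. The cluster median log2 fold change of 1.07 was 0.999 with library size only, 0.62 with no filter (55 genes), 1.31 with at least 10 counts (20 genes), 0.63 with DESeq2's Wald test (55 genes), 0.98 and 1.44 with limma at a mean FPKM of at least 1 and pseudocounts of 1 and 0.1 (19 genes), and 0.0271 with limma without that filter (55 genes). The replacement median of -0.49 was -0.55 with library size only, -0.55 in both filtered limma fits and -0.41 in the unfiltered one. Without 1 library each in turn, the medians ran from 0.98 to 1.34 and from -0.57 to -0.46. With library size only, which moved the median of all genes to -0.07, the CPM ratios were 2.34 for all cluster genes, 4.20 for cluster H2A, 2.17 for cluster H2B, 0.601 for all replacement genes, 0.336 for replacement H2A and 0.655 for replacement H3. The cluster ratio was 2.24 without the 3 genes with the most counts, an alternative chosen after seeing the data, and ran from 2.38 to 2.50 without 1 library, as did that of cluster H2B from 2.21 to 2.34. Control and ILL libraries share replicate numbers, but deviations of same-numbered libraries correlated at 0.0107, -0.0218 and -0.0179, so the numbers were not taken as pairs. With the replicate block the counts were 11 cluster DEGs higher and 2 lower, 0 replacement DEGs higher and 3 lower, 4 machinery and 12 chaperone DEGs lower, and the medians were 1.07 and -0.49. Depth limits the 47 sparse cluster genes, where a few reads set each ratio.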

Other observations

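Histone genes that the naming rule does not reach were looked up by symbol. The macroH2A variants carry a large extra domain and are known from silent chromatin. MACROH2A1 was counted at 8534, 7526 and 7382 reads in the control libraries and 4954, 4747 and 4865 reads in the ILL libraries, a log2 fold change of -0.62 (standard error 0.05, edgeR adjusted p = 6.93e-11). MACROH2A2 went from 916, 792 and 969 reads to 507, 635 and 598 reads, a log2 fold change of -0.56 (standard error 0.10, edgeR adjusted p = 3.11e-05). Both fell by less than 2-fold, and 36.9% of all tested genes were lower at an adjusted p-value under 0.05. H4-16, a single H4 gene outside the clusters, had 2, 1 and 0 reads in controls and 2, 1 and 7 reads with ILL and was too sparse for the test. The primate H3 genes H3Y1 and H3Y2 had no read in any library.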
